A study of Mus musculus with 28 samples.

Results

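The material was whole liver from 6 mice in which the gene of focal adhesion kinase (FAK), Ptk2, had either been deleted in hepatocytes by a viral vector or left intact, and in which liver fibrosis had then been induced by diet. These are 6 of the 28 RNA-seq libraries of a study of FAK in the liver epithelium, and they were taken by their labels as the vector-injected samples among 12 livers of mice fed DDC. All 6 mice were FVB, carried loxP-flanked Ptk2 on both alleles (FAKfl/fl) and had no Alb-Cre transgene. The 3 Virus KO mice (KO116M, KO117M and KO119M, replicates 1 to 3) received the adeno-associated vector AAV8-TBG-Cre by tail vein, and the 3 Virus WT mice (WT112M, WT113M and WT114M, replicates 1 to 3), described as littermates, received AAV8-TBG-Null, which carries no Cre. Every mouse then ate 0.1% w/w DDC for 4 to 8 weeks, with the duration and the age of each mouse not given in the sources used here. The sex of each mouse is not stated there either, and the level of Xist is given below. The other 6 DDC-fed livers came from Bred mice of the same strain, 3 FAKfl/fl;Alb-Cre+ (Bred KO) and 3 Alb-Cre-negative littermates without vector (Bred WT). They serve below as a second deletion to compare with. They are also in the same fit, so the estimate of spread behind the Virus tests is shared with them. For a few genes, levels are also given from WT mice of the study not fed DDC (unfed). Per the paper these were adult FAKfl/fl mice without Alb-Cre, sampled as whole liver and as isolated hepatocytes. They had 4 libraries of each kind, all outside the fit.

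FAK is a cytoplasmic tyrosine kinase that gathers at integrin contacts with the extracellular matrix and passes on signals from them through Src-family kinases, paxillin and PI3-kinase. The thyroxine-binding globulin (TBG) promoter of the vector is active in hepatocytes, so that bile duct cells, stellate cells, macrophages and endothelium keep an intact gene, whereas Alb-Cre acts from fetal life in hepatocytes and bile duct cells. DDC inhibits ferrochelatase, the last enzyme of heme synthesis, and the porphyrin that builds up plugs small bile ducts, which gives cholestasis, a ductular reaction and periportal fibrosis. In bulk liver, fewer cells of a type and less RNA per cell cannot be told apart.

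The 6 libraries held 15795289 to 20067408 counts (lowest in Virus KO replicate 2). Of 35275 genes in the table, 13955 passed the filter on low counts. The hepatocyte markers Alb, Apoa1, Ttr, Hnf4a, Serpina1a and Cyp2e1 all stood at 215 FPKM (counts scaled by gene length and library total) or more in the highest library, with sums of 21400 to 25900 in Virus WT and 24500 to 25600 in Virus KO, so the livers matched their label. Of 8 markers of other organs, only Cela1 passed the filter. Xist, an RNA of female cells, was at most 0.00356 FPKM in any of the 6, so by this gene all 6 livers were male. The first principal component of the 6 livers (49.3% of the variance) separated Virus KO from Virus WT. The second (18.0%) set Virus WT replicate 2 (24.7) and replicate 3 (-19.8) apart from each other, with the Virus KO livers between -7.61 and 1.77. In several genes below Virus WT replicate 2 lay far from the other controls, and the part of these genes in that axis was not tested.

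The targeted gene was lower in every Virus KO liver. Ptk2 stood at 5.52, 5.87 and 6.59 FPKM in the 3 Virus WT livers and at 3.06, 2.94 and 2.43 FPKM in the 3 Virus KO livers, without overlap, a 2.39-fold fall (log2 change -1.26 ± 0.19, SE, adjusted p = 0.00575). An exact two-sided permutation test of its log2(CPM + 1) gave p = 0.1, the smallest p that 3 against 3 allows. The count covers the whole gene, so transcripts that lack the floxed part and transcripts of cells that the vector does not target are both counted. In Bred mice the change was -1.70, and the difference between the 2 deletions (0.45) did not pass its test (adjusted p = 0.403). Of 22 genes of FAK and its partners, Ptk2 fell and Pik3r1, the regulatory subunit of PI3-kinase, rose (5.30, 6.64 and 7.61 FPKM in Virus WT against 14, 10.4 and 12.6 in Virus KO, log2 0.76 ± 0.17, adjusted p = 0.0360), and no other partner passed. Ptk2b, the FAK relative PYK2, changed by 0.22 (adjusted p = 0.439). The call on Pik3r1 did not last when any 1 Virus library was left out (adjusted p up to 0.158), whereas that on Ptk2 did in all 6 cases (up to 0.0382).

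Deletion of FAK with the vector went with 371 gene calls at an adjusted p under 0.05 (2.66% of the genes tested), 197 higher and 174 lower in Virus KO, which is 1.41% and 1.25%. On TMM-scaled counts the 3 KO and the 3 WT livers did not overlap in any of the 371, a separation also seen upward in 16.3% and downward in 16% of all genes. Genes that rose had modest levels, with a median of 4.10 FPKM in the higher group and a median log2 change of 1.03. Genes that fell were more abundant, with a median of 13.4 FPKM and a median change of -1.08. Over all genes the median was 0.007. The falls, among genes of at least 1 FPKM in either group, were led by Ppp1r3g, Igfbp1, Slc10a6, Mt2, Thbs1 and Maff. The rises were led by Dclk3, G0s2, Nrep and Cyp7a1 on the same terms.

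Each library counted for many of these calls. Leaving out 1 Virus library left 64 calls (without KO replicate 1), 89 (KO replicate 3), 96 (KO replicate 2), 82 (WT replicate 1), 172 (WT replicate 2) or 179 (WT replicate 3), and without Bred WT replicate 1, which is in the fit but not in the contrast, there were 688. All 371 genes kept their direction in every one of these fits that tested them. A core of 53 genes, 30 higher and 23 lower, was called whichever Virus library was left out. Scaling moved the balance of directions. With trends of length and GC content removed, 37.0% of calls were higher, and in limma on log2(FPKM + 1) 81.8%, against 53.1% here. The median change was 0.126 in limma on log2(FPKM + 1) and 0.155 on log2(FPKM + 0.1), over 12481 genes, against 0.007 in the edgeR fit, so that ratios of the FPKM below tend to lie above the fitted changes.

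**Figure D1:**
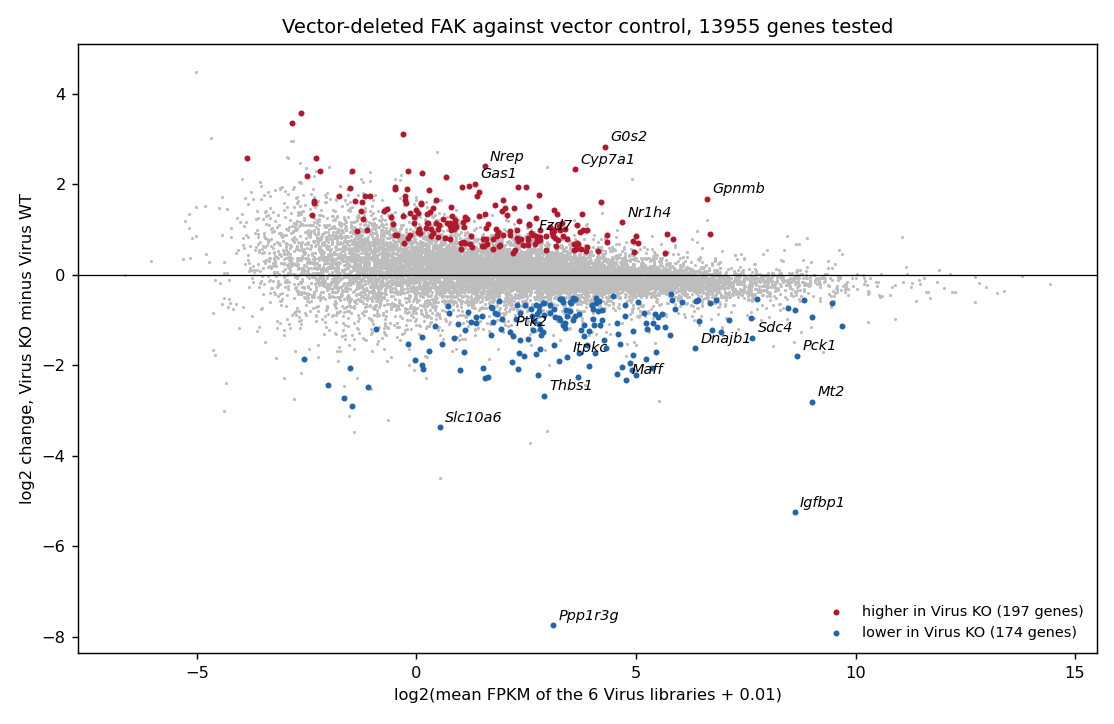
Fitted log2 change (Virus KO minus Virus WT, y axis) against log2 of the mean FPKM of the 6 Virus livers (x axis) for the 13955 genes tested. Red points are the 197 genes called higher, blue the 174 called lower and grey the rest. Ppp1r3g and Igfbp1 lie farthest below 0, and the most abundant called genes are among the falls.

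The falls of largest size were in Ppp1r3g and Igfbp1, and they are given here with other genes of glucose and lipid handling in fasting. Igfbp1, a secreted insulin-like growth factor binding protein that insulin represses, stood at 1060, 254 and 967 FPKM in Virus WT against 13.7, 24.9 and 28.5 in Virus KO. The lowest control lay far above the highest KO liver, although the controls spread widely among themselves. Its fitted change was -5.25 ± 0.87 (38.1-fold, adjusted p = 0.0110). Ppp1r3g, a glycogen-targeting subunit of protein phosphatase 1, held 695, 107 and 1434 counts in Virus WT against 0, 2 and 9 in Virus KO (15.8, 2.46 and 33.1 against 0, 0.0536 and 0.208 FPKM, log2 change -7.74 ± 1.04, adjusted p = 0.00305). With so few counts in Virus KO, the size of that fold is poorly set. Pck1, the first committed enzyme of gluconeogenesis, was at 656, 546 and 636 FPKM in Virus WT against 283, 133 and 180 in Virus KO (-1.79 ± 0.37, adjusted p = 0.0280). Lpin1, a phosphatidate phosphatase and coactivator of fatty acid oxidation genes, was at 37.4, 25.3 and 51.5 FPKM against 8.56, 9.37 and 10 (-2.19 ± 0.29, adjusted p = 0.00305). These groups lay far apart for Lpin1, with the KO livers close to each other. Its relative Lpin2 fell from 53.1, 46.3 and 48.0 to 21.6, 26.9 and 30.5 FPKM (-1.07 ± 0.14, adjusted p = 0.00267). Pdk4, the kinase that shuts pyruvate dehydrogenase in fasting, fell from 8.04, 6.48 and 4.60 to 1.97, 2.71 and 3.72 FPKM (-1.36 ± 0.27, adjusted p = 0.0250).

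Over a list of 33 genes of glucose handling and the fasting response, put together after the first of these values had been seen, 7 fell and 1 rose (1.25% and 1.41% of all genes did), with a median log2 change of -0.46. Beside Ppp1r3g, Igfbp1, Lpin1, Pck1 and Pdk4 (Lpin2 is not on the list), the fallers were Ddit4, an inhibitor of mTORC1 (49.0, 31.5 and 74.1 against 9.70, 14.2 and 13.4 FPKM, -2.21 ± 0.50), and Crem, a modulator of cAMP-responsive transcription (17.7, 18.9 and 22.0 against 5.58, 5.53 and 8.86, -1.72 ± 0.32). Ppp1r3b, the main hepatic glycogen-targeting subunit, which insulin induces, rose (8.32, 8.30 and 8.23 against 39.1, 24.7 and 21.3 FPKM, 1.61 ± 0.30, adjusted p = 0.0179). G6pc, the enzyme that releases glucose, stood at 74.2, 25.1 and 138 FPKM in Virus WT against 14.1, 9.97 and 14.4 in Virus KO without passing the test (adjusted p = 0.0782), and Irs2, the insulin receptor substrate, at 15.5, 6.07 and 50 against 4.85, 4.64 and 5.26 (adjusted p = 0.116). In both of these, as in Igfbp1 and Ppp1r3g, Virus WT replicate 2 was the control nearest to the KO livers. Ppp1r3g, Lpin1 and Lpin2 were called whichever Virus library was left out. Igfbp1 missed the threshold without any 1 of the KO livers (adjusted p up to 0.0790), and Pck1 (up to 0.110), Pdk4 (up to 0.113), Ddit4 (up to 0.155), Crem (up to 0.101) and Ppp1r3b (up to 0.0838) without some of the 6. Feeding state and hour of tissue collection are not given in the sources used here, and their part in these values was not tested.

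The start-site windows of 4 genes that fell are shown because each holds an element of the regulator its gene is known for. They run from 250 bases before the annotated start to 50 bases after it on the gene's strand, are those of RefSeq on GRCm38.p6, and have the matched letters in capitals. Igfbp1 (chr11:7197537-7197836, plus strand) holds the insulin response element CAAAACA, the reverse complement of TGTTTTG, which FOXO factors bind, beginning at -108 from the start. Pck1 (chr2:173152823-173153122, plus strand) holds the cAMP response element in the form TNACGTCA, which CREB binds, at -93. Mt2 (chr8:94172368-94172667, plus strand), whose values follow, holds the metal response element TGCACNC, which MTF1 binds, or its reverse complement at -223 and -50. Abcc4 (chr14:118706170-118706469, minus strand), an exporter of bile acids described with the NRF2 targets, holds the antioxidant response element TGACNNNGC or its reverse complement at -25. The 4 genes were picked for a match. Nqo1, Txnrd1, Gsta2 and Ephx1, the other NRF2 targets called lower below, lacked the antioxidant letters in the first window listed for each. That of Dnajb1, a heat shock gene described below, lacked the heat shock letters GAANNTTC.
Igfbp1: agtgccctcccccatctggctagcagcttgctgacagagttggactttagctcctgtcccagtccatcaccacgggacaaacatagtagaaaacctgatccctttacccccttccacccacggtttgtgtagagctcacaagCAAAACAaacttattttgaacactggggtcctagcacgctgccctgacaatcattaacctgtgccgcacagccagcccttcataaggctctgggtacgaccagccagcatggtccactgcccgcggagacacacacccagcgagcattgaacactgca
Pck1: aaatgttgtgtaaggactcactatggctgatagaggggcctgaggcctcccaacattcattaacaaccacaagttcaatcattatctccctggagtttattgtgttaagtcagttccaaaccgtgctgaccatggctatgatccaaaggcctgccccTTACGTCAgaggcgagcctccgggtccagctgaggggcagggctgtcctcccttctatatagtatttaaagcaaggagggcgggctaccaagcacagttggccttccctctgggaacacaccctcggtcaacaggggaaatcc
Mt2: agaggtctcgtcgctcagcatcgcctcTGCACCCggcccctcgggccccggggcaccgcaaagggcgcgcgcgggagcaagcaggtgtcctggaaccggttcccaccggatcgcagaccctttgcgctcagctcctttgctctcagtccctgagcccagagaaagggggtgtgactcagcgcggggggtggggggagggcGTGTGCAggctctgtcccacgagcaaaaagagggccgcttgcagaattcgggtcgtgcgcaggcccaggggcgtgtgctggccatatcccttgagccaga
Abcc4: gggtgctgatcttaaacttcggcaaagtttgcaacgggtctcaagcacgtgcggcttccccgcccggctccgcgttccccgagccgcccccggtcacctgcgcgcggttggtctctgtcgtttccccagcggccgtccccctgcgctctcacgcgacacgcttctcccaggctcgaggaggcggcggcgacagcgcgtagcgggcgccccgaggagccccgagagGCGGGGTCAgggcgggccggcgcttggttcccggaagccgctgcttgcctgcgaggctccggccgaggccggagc

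Such letters are common in promoters, so that a match describes the window and marks no site in use. Both strands were searched in 32851 mouse start-site windows, of which 189 belonged to 141 of the 174 genes that fell and 207 to 154 of the 197 that rose. TGACNNNGC was present in 20.6% of the windows of genes that fell, 11.1% of those of genes that rose and 12.4% of all windows. TNACGTCA was in 6.35%, 2.90% and 2.93%, TGTTTTG in 5.29%, 2.42% and 6.28%, and TGCACNC in 12.2%, 9.18% and 12.6%. The AP-1 letters TGANTCA, read by FOS and JUN proteins, were in 7.94% of windows of genes that fell, 2.90% of those of genes that rose and 7.81% of all, and the GLI letters TGGGTGGTC, read by the transcription factors of the Hedgehog pathway, in 0.529%, 0.966% and 0.253%. Other letters were counted too. In windows of genes that fell against all windows, STAT letters were in 10.6% and 8.30% and the E-box in 9.52% and 7.15%. The FOXO consensus was in 4.23% and 3.65% and the D-box in 2.65% and 2.32%. Glucocorticoid letters were in 6.35% and 6.85%, the heat shock pair in 5.82% and 7.86% and its triplet in 0.00% and 0.603%. The fallers held the antioxidant letters, and the cAMP letters (12 of 189 windows), more often than all windows did. The insulin and metal letters of Igfbp1 and Mt2 were not more frequent among the fallers. The set of all windows was not limited to the 13955 genes tested, and no test was made of these shares.

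Dnajb1, an HSP40 co-chaperone induced by heat shock factor 1, was at 115, 108 and 133 FPKM in Virus WT against 44.4, 40.3 and 45.3 in Virus KO (-1.62 ± 0.16, adjusted p = 0.000722). Itpkc, a kinase that phosphorylates inositol trisphosphate, fell from 18.5, 13.2 and 17.5 to 4.94, 5.38 and 5.34 FPKM (-1.82 ± 0.17, adjusted p = 0.000722). These 2 and Trp53inp1, a p53-induced gene of autophagy and cell death (52.5, 39.5 and 51.9 against 12.2, 11.3 and 14.1 FPKM, -2.10 ± 0.20), shared the smallest adjusted p. Maff, a small MAF protein that pairs with NRF2 and its relatives, fell from 48.3, 30.4 and 56.4 to 7.91, 12.7 and 9.70 FPKM (-2.32 ± 0.26, adjusted p = 0.00130). Akap12, a scaffold for protein kinase A, fell from 4.12, 3.01 and 7.19 to 1.14, 1.17 and 0.981 FPKM (-2.28 ± 0.26), and Slc10a6, a transporter of sulfated steroids, from 2.77, 3.18 and 1.82 to 0.328, 0.328 and 0.180 FPKM (-3.37 ± 0.47). Inhbb, which encodes the subunit of activin B, was at 22.0, 13 and 27.0 FPKM against 6.09, 4.36 and 4.01 (-2.26 ± 0.31, adjusted p = 0.00359). All 7 genes named from Dnajb1 to Inhbb were called whichever Virus library was left out.

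Mt2, a metallothionein that binds zinc and copper and has a close copy in Mt1, was at 909, 1330 and 443 FPKM in Virus WT against 124, 192 and 118 in Virus KO (-2.80 ± 0.56, adjusted p = 0.0250). Of 24 immediate early genes 4 fell and 0 rose (1.25% and 1.41% of all genes did), with a median of -0.67. The falls were in Fosl1 (-2.06 ± 0.42), an AP-1 subunit, Btg2 (-1.62 ± 0.35), an antiproliferative p53 target, Junb (-1.21 ± 0.27), another AP-1 subunit, and Klf4 (-0.94 ± 0.22), a zinc finger factor. Fos (-0.32, adjusted p = 0.750), Jun (0.36, adjusted p = 0.392) and Egr1 (-0.80, adjusted p = 0.345) did not pass. Cdkn1a, the p53-induced inhibitor p21, was at 69.8, 48.9 and 78.8 FPKM against 14.4, 21.0 and 32.2 (-1.71 ± 0.40, adjusted p = 0.0422), the single call among 30 cell cycle genes. Socs3, the feedback inhibitor of STAT3, was at 24.9, 22.0 and 73.8 FPKM against 9.26, 15.1 and 8.42 (-2.03 ± 0.46, adjusted p = 0.0380). Of 29 genes of heat shock and the unfolded protein response Dnajb1 alone passed, while 28 of the 29 had a fitted change below 0 (median -0.38). Cdkn1a missed the threshold whichever Virus library was left out (adjusted p up to 0.180), Mt2 (up to 0.116), Fosl1 (up to 0.128), Btg2 (up to 0.141), Junb (up to 0.137), Klf4 (up to 0.172) and Socs3 (up to 0.159) in 5 of the 6 cases, and Btg2, Junb and Klf4 also missed it in limma on log2(FPKM + 1).

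**Figure D2:**
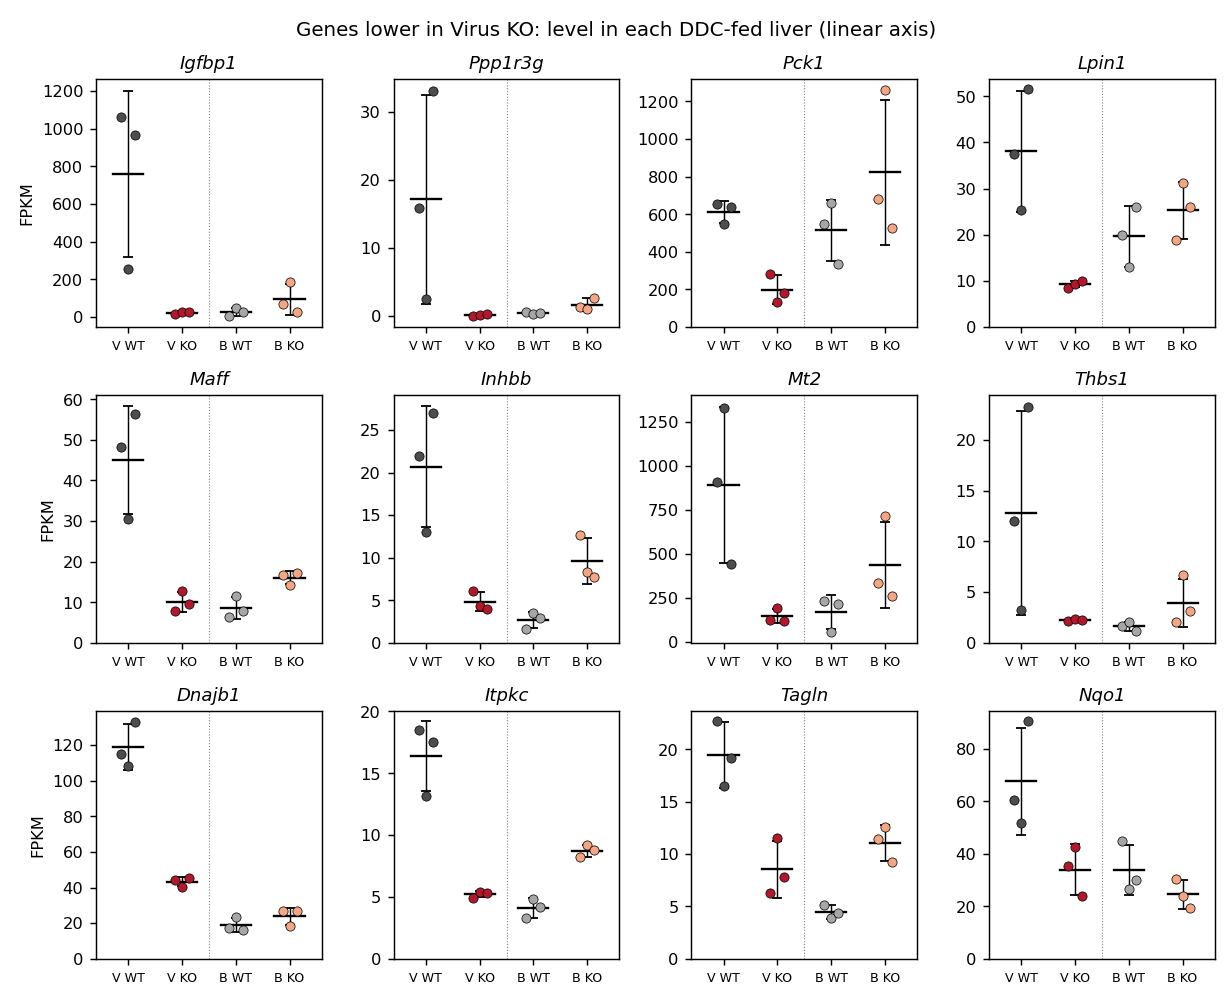
Level (FPKM, linear y axis) of 12 genes called lower in Virus KO, with 1 point per liver, the group mean as a horizontal bar and the SD as the error bar (n = 3). V marks Virus and B marks Bred mice. In every panel each Virus KO liver lies below each Virus WT liver, and for Igfbp1, Ppp1r3g and Maff all 6 Bred livers lie nearer to Virus KO than to the Virus WT mean.

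Genes of glutathione and the oxidant response, which NRF2 governs, mostly had a fitted change below 0. Of 30 members 5 fell and 0 rose (1.25% and 1.41% of all genes did). In every KO liver 23 lay below the controls (16% of all genes did), 29 had a fitted change below 0, and the median was -0.57 (range -0.59 to -0.40 over the other scalings and fits). Nqo1, a quinone reductase, was at 60.5, 51.7 and 90.8 FPKM in Virus WT against 35.5, 42.8 and 23.8 in Virus KO (-1.15 ± 0.27, adjusted p = 0.0442). Txnrd1, the cytosolic thioredoxin reductase, was at 152, 177 and 204 FPKM against 95.3, 106 and 96.8 (-1.0 ± 0.20, adjusted p = 0.0270). Gsta2, an alpha-class glutathione transferase with close copies in the genome, was at 562, 554 and 836 FPKM against 347, 422 and 368 (-0.94 ± 0.18), and Ephx1, the microsomal epoxide hydrolase, at 724, 778 and 941 against 630, 611 and 528 (-0.63 ± 0.14). Abcc4, which carries bile acids back into blood in cholestasis, fell from 38.2, 29.7 and 57.5 to 20.4, 22.9 and 15.7 FPKM (-1.25 ± 0.25, adjusted p = 0.0261). The mRNA of NRF2 itself, Nfe2l2, changed by 0.32 (adjusted p = 0.258), and Hmox1, heme oxygenase 1, by -0.37 (adjusted p = 0.390). Bach1, a repressor at the same elements, was among the 53 genes called whichever Virus library was left out and fell by 1.11 on the log2 scale. The 5 calls of the list were less firm, since Nqo1 (adjusted p up to 0.156), Txnrd1 (up to 0.116) and Ephx1 (up to 0.137) missed the threshold in all 6 such fits, Abcc4 (up to 0.107) in 5 and Gsta2 (up to 0.108) in 4. Nqo1 and Ephx1 also missed it in limma on log2(FPKM + 1). In Bred mice 1 member of the list was called higher and 8 lower (3.17% and 3.08% of all genes were), with a median of -0.45. The difference between the 2 deletions was called for 1 member.

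The Hedgehog pathway, in which a secreted ligand relieves Patched from holding down Smoothened so that GLI factors act, is the pathway the study followed. Of 18 measured members 3 rose and 0 fell (1.41% and 1.25% of all genes did). In every KO liver 10 lay above the controls (16.3% of all genes did) and 0 below, and the median was 0.48 (0.40 to 0.55 over the other scalings and fits). Ihh, Indian hedgehog, the ligand, was at 3.21, 4.19 and 3.01 FPKM in Virus WT against 7.17, 7.54 and 10.4 in Virus KO (1.10 ± 0.25, 2.14-fold, adjusted p = 0.0357). Smo, the Smoothened signal transducer, was at 5.95, 4.68 and 5.80 FPKM against 12.8, 10.4 and 12.9 (0.97 ± 0.20, 1.95-fold, adjusted p = 0.0280). For both genes each KO liver lay well above the highest control. Gas1, a co-receptor that helps ligand reach Patched, was at 1.14, 1.05 and 0.534 FPKM against 5.02, 3.85 and 3.43 (2.01 ± 0.40, 4.02-fold, adjusted p = 0.0248). Among genes that Hedgehog signalling itself induces, Ptch1 was at 5.21, 3.68 and 3.63 FPKM against 5.66, 5.65 and 6.49 (0.34 ± 0.18, adjusted p = 0.339) and Hhip changed by 1.23 (adjusted p = 0.566). The co-receptor Cdon was at 0.280, 0.153 and 0.146 against 0.320, 0.407 and 0.469 FPKM (adjusted p = 0.131). Gli3 changed by -0.21 ± 0.39 (adjusted p = 0.813), while Gli1, Gli2, Shh, Dhh and Scube2 did not pass the filter on low counts. The calls on Ihh (adjusted p up to 0.141), Smo (up to 0.113) and Gas1 (up to 0.102) were each lost whichever Virus library was left out, and that on Ihh also with trends of length and GC content removed.

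Of 31 measured members of the Wnt pathway 5 rose and 0 fell (1.41% and 1.25% of all genes did), 10 had a fitted change below 0, and the median was 0.42. In every KO liver 11 lay above the controls (16.3% of all genes did) and 0 below (16% did). Fzd7, a Frizzled receptor, was at 4.08, 4.33 and 3.84 FPKM in Virus WT against 9.24, 7.42 and 8.75 in Virus KO (0.88 ± 0.13, adjusted p = 0.00533), with little spread in either group. Rnf43, a ubiquitin ligase that clears Frizzled receptors and is itself a Wnt target, was at 1.93, 2.44 and 1.42 FPKM against 5.43, 5.70 and 6.29 (1.42 ± 0.22, adjusted p = 0.00807). Nkd1, an inhibitor of Dishevelled and a Wnt target, was at 1.02, 0.731 and 1.32 FPKM against 2.33, 2.94 and 2.64 (1.20 ± 0.21, adjusted p = 0.0160). Wnt5a, a ligand that signals mostly without beta-catenin, was at 0.504, 0.310 and 0.467 FPKM against 1.31, 1.03 and 1.18 (1.29 ± 0.24, adjusted p = 0.0213). Fzd2 rose by 3.58 ± 0.78 from very low levels (at most 0.0297 FPKM in a control and 0.490 in a KO liver). Dixdc1, a Dishevelled-binding regulator outside the list, was one of the firmest rises (0.540, 0.666 and 0.567 against 1.85, 2.14 and 2.30 FPKM, 1.66 ± 0.17, adjusted p = 0.000836). The ligand Wnt4 (0.62 ± 0.26, adjusted p = 0.234) and the target genes Axin2 (0.70, adjusted p = 0.345) and Lgr5 (-0.07, adjusted p = 0.924) did not pass. Fzd7, Rnf43 and Dixdc1 were called whichever Virus library was left out, Nkd1 in 3 of the 6 cases (adjusted p up to 0.0687), Wnt5a in 2 (up to 0.0984) and Fzd2 in 1 (up to 0.136).

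**Figure D3:**
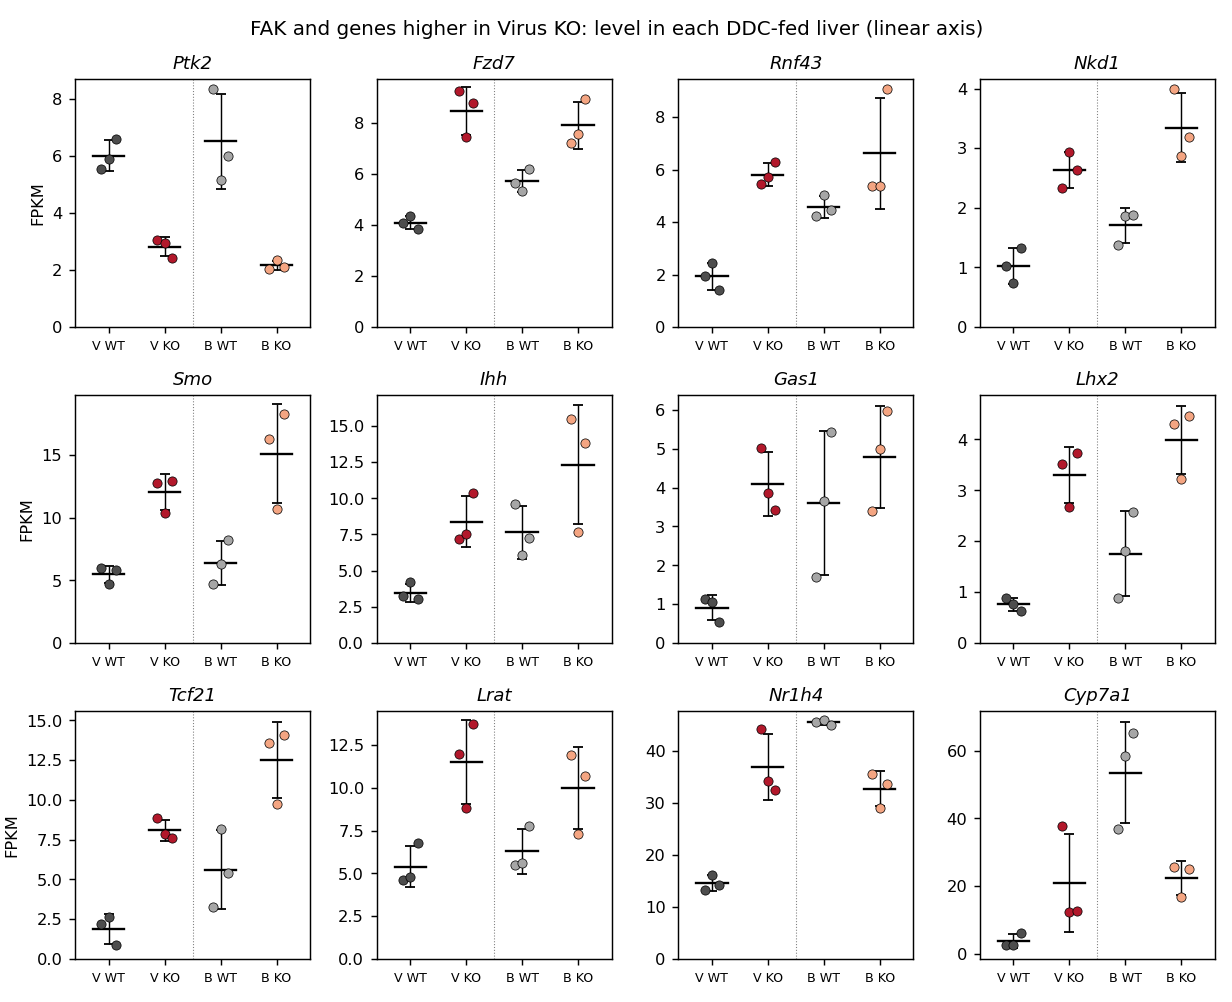
Level (FPKM, linear y axis) of Ptk2 and of 11 genes called higher in Virus KO, with 1 point per liver, the group mean as a horizontal bar and the SD as the error bar (n = 3). V marks Virus and B marks Bred mice. Ptk2 is lower in both KO groups. In the other panels every Virus KO liver lies above every Virus WT liver, and for Smo and Lhx2 the Bred KO livers also lie above the Bred WT livers.

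Genes of stellate cells, the vitamin A-storing cells that become the liver's myofibroblasts, were called in both directions. Of 19 measured members 4 rose and 1 fell (median 0.27), where 1.41% and 1.25% of all genes did. Lhx2, a homeobox factor that holds stellate cells quiescent, was at 0.887, 0.766 and 0.634 FPKM in Virus WT against 3.51, 2.68 and 3.73 in Virus KO (1.95 ± 0.31, adjusted p = 0.00909). Tcf21, a factor of quiescent mesenchyme, was at 2.19, 2.62 and 0.848 FPKM against 8.84, 7.82 and 7.60 (1.93 ± 0.37, adjusted p = 0.0220). Lrat, the enzyme that esterifies retinol for storage, was at 4.59, 4.78 and 6.78 FPKM against 12, 8.83 and 13.7 (0.93 ± 0.21, adjusted p = 0.0336), and Gucy1a1, a subunit of soluble guanylate cyclase, at 1.16, 1.10 and 1.40 against 3.33, 2.52 and 3.84 (1.24 ± 0.23). The fall was in Tagln, a contractile protein of smooth muscle and myofibroblasts (22.7, 16.5 and 19.2 against 6.28, 11.5 and 7.82 FPKM, -1.35 ± 0.23, adjusted p = 0.0118). Acta2, smooth muscle actin, stood at 4.63, 1.98 and 3.52 FPKM against 1.15, 2.45 and 1.29 and did not pass (adjusted p = 0.243), as did not Pdgfrb (0.49, adjusted p = 0.352), Des (0.27, adjusted p = 0.501) and Vim (0.04, adjusted p = 0.945). The summed level of the 6 fixed stellate and myofibroblast markers ran from 35.3 to 47.9 FPKM in Virus WT and from 61.1 to 77.6 in Virus KO, that of the 4 portal fibroblast markers from 19.1 to 29.0 and from 32.0 to 35.3, with 1 and 0 members called, and no marker was at 0 in any library. Col1a1, itself a matrix gene, was the largest part of the first sum in every library, and Eln and Fbln2 of the second overlapped between groups. The part played by shifts of these sums in the Hedgehog, Wnt and matrix values was not tested. Lhx2 was called whichever Virus library was left out, Tagln in 3 of the 6 cases (adjusted p up to 0.0693), and Tcf21 (up to 0.0939), Lrat (up to 0.133) and Gucy1a1 (up to 0.0838) in 2.

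No fibrillar or associated collagen passed the test, although 14 of 15 had a fitted change above 0 and the median was 0.55 (0.41 to 0.71 over the other scalings and fits). Of the 15, 9 lay above the controls in every KO liver (16.3% of all genes did) and 0 below (16% did). By DESeq2 0 of the 15 passed, by limma on log2(FPKM + 1) 2 were called higher, with the 6 Virus libraries fitted alone 6 were called higher and 0 lower, and at an unadjusted p under 0.05 in edgeR 4 did. Col1a1, the main fibrillar collagen chain, was at 19.4, 13.8 and 19.5 FPKM in Virus WT against 39.8, 28.3 and 26.9 in Virus KO (0.69 ± 0.37, adjusted p = 0.347). Col3a1 was at 48.0, 34.7 and 44.8 FPKM against 91.5, 60.8 and 72.8 (0.66 ± 0.22, adjusted p = 0.140). Col1a2 (0.53 ± 0.26, adjusted p = 0.285) and Col6a1 (0.63 ± 0.32, adjusted p = 0.308) likewise had no overlap between groups and no call, and Col12a1 changed by 0.40 ± 0.26 (adjusted p = 0.436). Among 24 matrix proteases and inhibitors 3 rose and 0 fell (1.41% and 1.25% of all genes did). These were Mmp14, the membrane-bound activator of pro-MMP2 (43.5, 36.2 and 38.2 against 63.7, 61.6 and 60.4 FPKM, 0.49 ± 0.11, adjusted p = 0.0391), Adamts5, an aggrecanase (0.450, 0.289 and 0.351 against 1.51, 0.923 and 1.41, 1.65 ± 0.30, adjusted p = 0.0183), and Mmp11, stromelysin 3 (0.187, 0.214 and 0.143 against 0.719, 0.664 and 0.669, 1.73 ± 0.37, adjusted p = 0.0288). Sdc4, a heparan sulfate co-receptor at focal adhesions, fell from 305, 314 and 226 to 122, 114 and 126 FPKM (-1.39 ± 0.25, adjusted p = 0.0178), and Itga3, the alpha3 integrin, by 0.81 on the log2 scale (adjusted p = 0.0472), with Virus WT replicate 2 and Virus KO replicate 2 both at 10.4 FPKM. Mmp14 and Mmp11 lost their calls whichever Virus library was left out (adjusted p up to 0.157 and 0.113), Itga3 in 5 of the 6 cases (up to 0.187), and Sdc4 (up to 0.0838) and Adamts5 (up to 0.0841) in 4.

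TGF-beta signalling, the main profibrotic pathway, had 0 rises and 3 falls among 22 members (median 0.09, with a sign that changed with the scaling), where 1.41% of all genes rose and 1.25% fell. Thbs1, thrombospondin 1, which activates latent TGF-beta, was at 12, 3.25 and 23.3 FPKM in Virus WT against 2.15, 2.35 and 2.24 in Virus KO (-2.67 ± 0.58, adjusted p = 0.0310). The KO livers were nearly equal, while the controls spread widely. Smad3, a signal transducer, was at 12, 11.4 and 9.51 against 8.08, 8.40 and 9.15 (-0.53 ± 0.12, adjusted p = 0.0397). Tgfb1 (0.13, adjusted p = 0.772), Tgfbr3 (0.37 ± 0.21, adjusted p = 0.359) and Acvrl1 (0.23 ± 0.19, adjusted p = 0.549) did not pass. Thbs1 (adjusted p up to 0.136) and Smad3 (up to 0.172) lost their calls in 5 of the 6 fits without 1 Virus library. Without Virus WT replicate 2, the control nearest to the KO livers, Thbs1 kept its call.

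Bile acid genes changed at the sensor and at the first step of synthesis. Nr1h4, the bile acid receptor FXR, was at 13.3, 16.2 and 14.3 FPKM in Virus WT against 44.3, 34.2 and 32.5 in Virus KO (1.17 ± 0.13, 2.26-fold, adjusted p = 0.00145). Cyp7a1, the rate-limiting enzyme of bile acid synthesis, was at 2.54, 2.63 and 5.93 FPKM against 37.7, 12.3 and 12.5 (2.34 ± 0.45, 5.06-fold, adjusted p = 0.0215). In both genes every KO liver lay far above the highest control. Nr0b2, the FXR target SHP that represses Cyp7a1, changed by 0.06 (adjusted p = 0.977), and the export pump Abcb11 by -0.32 (adjusted p = 0.327). Over the 31 measured genes of bile acid synthesis and transport 2 rose and 1, Abcc4, fell (1.41% and 1.25% of all genes did), and the median was -0.31. Of 23 genes of cholesterol synthesis 2 fell and 0 rose, with 21 changes below 0 and a median of -0.47, namely Msmo1, a sterol demethylase (56.6, 52.5 and 52.4 against 35.8, 31.6 and 31.8 FPKM, -0.87 ± 0.14, adjusted p = 0.0112), and Sqle, squalene epoxidase (-0.60 ± 0.13, adjusted p = 0.0333). Cyp1a2, a pericentral enzyme of xenobiotic oxidation, fell from 1070, 926 and 1270 to 489, 663 and 512 FPKM (-1.13 ± 0.22, adjusted p = 0.0224). Nr1h4 was called whichever Virus library was left out, Cyp7a1 (adjusted p up to 0.0916) and Msmo1 (up to 0.0554) in 3 of the 6 cases, Cyp1a2 (up to 0.113) in 2 and Sqle (up to 0.130) in 0.

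The largest rises, among genes with a mean of at least 1 FPKM in the higher group, were scattered over functions. Several of these genes were below 1 FPKM in every control, which leaves the size of their fold poorly set. G0s2, an inhibitor of the lipase ATGL, was at 4.20, 7.69 and 1.10 FPKM in Virus WT against 37.1, 31.1 and 36.2 in Virus KO (2.83 ± 0.51, adjusted p = 0.0167). Nrep, a small protein of regenerating tissue, was at 0.868, 0.954 and 0.712 FPKM against 8.18, 3.36 and 3.47 (2.40 ± 0.33, adjusted p = 0.00373), with Virus KO replicate 1 well above the other KO livers. Spsb4, a SOCS-box adaptor of a ubiquitin ligase, rose 3.89-fold (1.96 ± 0.25), Adra2b, an alpha2 adrenergic receptor, 4.51-fold (2.17 ± 0.35), and 1700003E16Rik, a gene without a named function, 4.94-fold (2.30 ± 0.32). Dclk3, a doublecortin-like kinase (0.215, 0.124 and 0.109 against 2.11, 1.34 and 0.892 FPKM, 3.10 ± 0.73, adjusted p = 0.0441), and Mkx, the homeobox factor Mohawk (0.284, 0.102 and 0.409 against 1.53, 0.989 and 0.922, 1.95 ± 0.41, adjusted p = 0.0288), were also among the 10 largest. Nrep, Spsb4, Adra2b and 1700003E16Rik were called whichever Virus library was left out, G0s2 in 3 of the 6 cases (adjusted p up to 0.0754), Mkx in 1 (up to 0.131) and Dclk3 in 0 (up to 0.159).

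The next 7 genes are among the 30 rises called whichever Virus library was left out, and were chosen after their values had been seen. S1pr5, a sphingosine 1-phosphate receptor, was at 2.19, 2.48 and 1.72 FPKM in Virus WT against 9.97, 8.58 and 9.01 in Virus KO (1.94 ± 0.26, adjusted p = 0.00305). Its relative S1pr1 was at 8.40, 8.39 and 9.31 FPKM against 23.0, 15.2 and 19.4 (0.98 ± 0.15, adjusted p = 0.00707). Pth1r, the parathyroid hormone receptor, was at 2.05, 2.58 and 3.90 FPKM against 10.3, 12.4 and 9.90 (1.77 ± 0.26, adjusted p = 0.00562). Sstr2, a somatostatin receptor, was at 1.87, 1.75 and 1.55 FPKM against 5.74, 5.55 and 7.14 (1.66 ± 0.19, adjusted p = 0.00146). Ephb4, a receptor of ephrin B2, was at 8.68, 7.83 and 8.65 FPKM against 17.1, 17.5 and 19.4 (0.94 ± 0.11, adjusted p = 0.00187), and Clec14a, an endothelial lectin, at 1.19, 1.33 and 2.07 against 4.22, 4.17 and 4.71 (1.35 ± 0.22, adjusted p = 0.00858). The kinase gene Hunk was at 0.920, 1.21 and 1.15 FPKM against 4.44, 3.89 and 4.04 (1.75 ± 0.21, adjusted p = 0.00161). In each of these the groups were separated by more than the whole range of the controls. A list of 20 endothelial genes showed no such shift, with 0 rises, 1 fall (Esam, an adhesion molecule, -0.63 ± 0.13, adjusted p = 0.0255, up to 0.116 with 1 Virus library left out) and a median of -0.02, and the 4 endothelial markers summed to 55.7 to 61.7 FPKM in Virus WT and 56.2 to 64.6 in Virus KO. In unfed WT mice S1pr1 averaged 29.3 FPKM in isolated hepatocytes and 19.8 in whole liver. Ephb4 averaged 12.9 and 12.8 there, and Clec14a 1.93 and 5.51. Which cells made these rises was not tested.

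Of 23 macrophage and monocyte genes 2 rose and 2 fell (median -0.01), where 1.41% and 1.25% of all genes did. Gpnmb, a glycoprotein of lipid-laden and scar-associated macrophages, was at 47.4, 40.9 and 39.0 FPKM in Virus WT against 230, 81.7 and 146 in Virus KO (1.68 ± 0.41, adjusted p = 0.0475), and Lgals3, galectin 3, at 68.6, 73.3 and 58.3 against 161, 135 and 125 (0.90 ± 0.17, adjusted p = 0.0215). Cd163, the hemoglobin-haptoglobin scavenger receptor, fell from 4.01, 2.13 and 3.22 to 0.666, 0.705 and 1.06 FPKM (-2.11 ± 0.44, adjusted p = 0.0280). Cd14, the endotoxin co-receptor, fell from 116, 228 and 159 to 70.1, 85.0 and 78.9 FPKM (-1.27 ± 0.24, adjusted p = 0.0207). The Kupffer cell gene Clec4f was at 87.2, 83.6 and 108 FPKM against 60.8, 60.6 and 74.4 (-0.68 ± 0.24, adjusted p = 0.151) and Trem2 at 4.67, 4.19 and 4.16 against 10.6, 6.74 and 6.99 (0.74 ± 0.35, adjusted p = 0.277), both without a call. Adgre1, which encodes F4/80, was at 16.5, 17.8 and 19.4 FPKM against 18.0, 15.0 and 17.2 (-0.26 ± 0.12, adjusted p = 0.264), and the 4 macrophage markers summed to 176 to 213 FPKM in Virus WT and 166 to 208 in Virus KO. The calls on Lgals3 (adjusted p up to 0.102) and Cd14 (up to 0.102) held in 2 of the 6 fits without 1 Virus library, and those on Gpnmb (up to 0.202) and Cd163 (up to 0.128) in 1.

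Of 19 genes of the circadian clock and its outputs 1 rose and 2 fell (1.41% and 1.25% of all genes did), and the median, 0.02, changed sign with the scaling. Hlf, a PAR-domain factor of the clock output, was at 1.79, 1.72 and 2.46 FPKM in Virus WT against 8.78, 4.48 and 5.18 in Virus KO (1.47 ± 0.28, adjusted p = 0.0215). Its relative Dbp was at 8.26, 17.3 and 4.85 FPKM against 66.1, 42.0 and 40.7 (2.12 ± 0.63, adjusted p = 0.0928) and was not called. Nfil3, the repressor at the same D-box elements, fell from 25.5, 13.2 and 32.7 to 5.41, 7.25 and 7.12 FPKM (-2.01 ± 0.47, adjusted p = 0.0397), and Per1, a core clock repressor also induced by glucocorticoids, from 13, 8.50 and 8.96 to 6.31, 4.01 and 3.78 (-1.27 ± 0.26, adjusted p = 0.0259). Arntl (-0.90, adjusted p = 0.509), Nr1d1 (0.26, adjusted p = 0.852) and Per2 (1.03, adjusted p = 0.194) did not pass. Hlf and Per1 were called in 3 of the 6 fits without 1 Virus library (adjusted p up to 0.0951 and 0.106) and Nfil3 in 1 (up to 0.170).

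**Figure D4:**
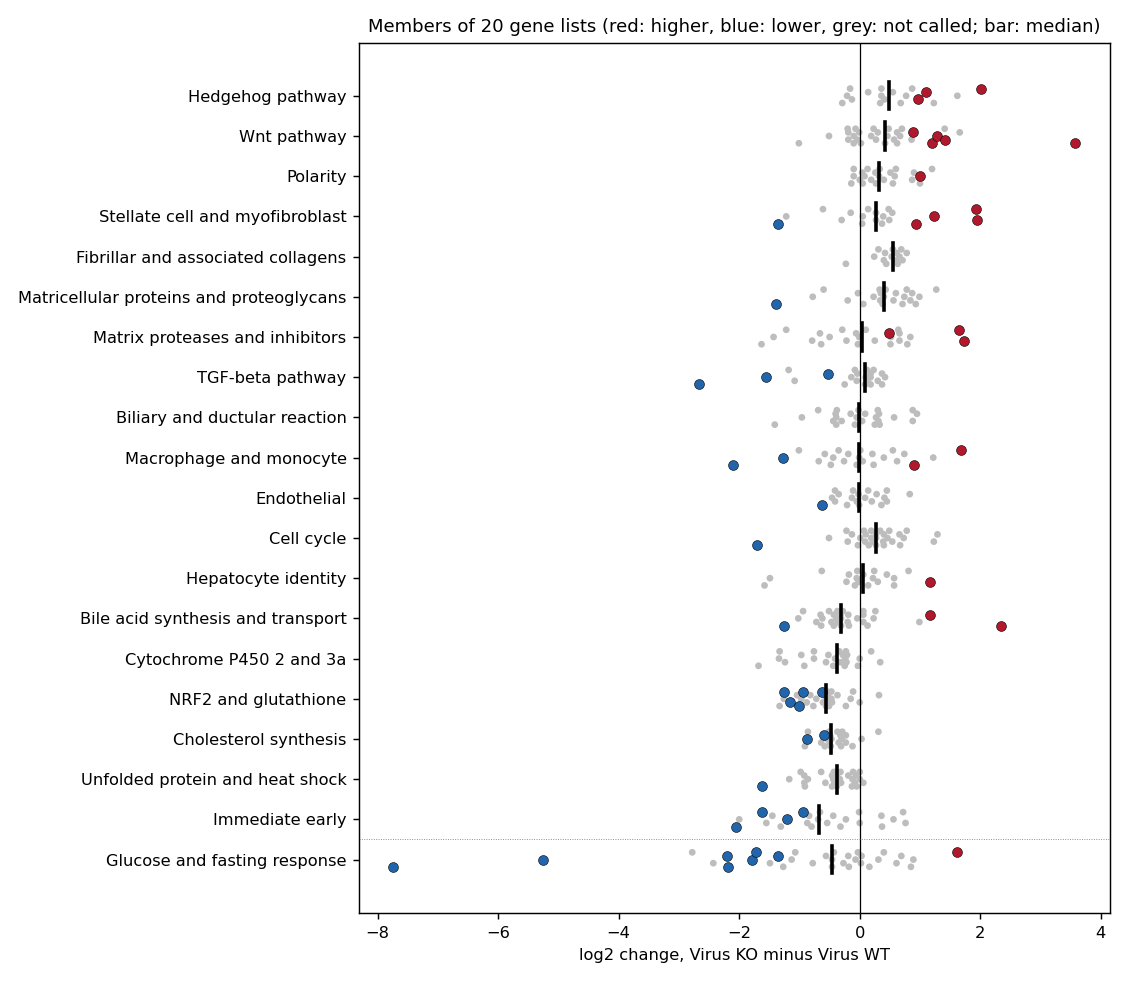
Fitted log2 change (Virus KO minus Virus WT, x axis) of each measured member of 20 gene lists, with members called higher in red, lower in blue and uncalled in grey, and the median of each list as a black bar. The last list was put together after values had been seen. Calls in the Hedgehog and Wnt lists lie to the right of 0, those in the NRF2, immediate early, cholesterol and TGF-beta lists to the left, and the collagens, 14 of 15 to the right of 0, have no call.

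Several lists that DDC injury touches held no call. Only 2.66% of all genes tested were called, so 0 calls in lists of this size does not set them apart from other genes. None of 25 genes of bile duct cells and the ductular reaction passed (median -0.02). Krt19, a keratin of bile duct cells, was at 19.9, 10.3 and 21.9 FPKM in Virus WT against 8.73, 15.7 and 5.58 in Virus KO (-0.96 ± 0.90, adjusted p = 0.615), a wide spread in both groups. Neutrophil genes (11 measured), red blood cell genes (8), chemokines and their receptors (27), coagulation factors (23), Notch pathway genes (19), YAP and TEAD targets (21) and cytochromes of the P450 2 and 3a families (24, of which 21 had a change below 0) held 0 calls each in either direction. With the 6 Virus libraries fitted alone 2 bile duct genes, 1 chemokine gene, 3 Notch genes and 1 YAP target were called higher and 1 bile duct gene, 2 chemokine genes, 1 YAP target and 7 cytochromes lower. By DESeq2 1 bile duct gene, 3 Notch genes and 1 YAP target were called higher and 1 coagulation gene, 1 YAP target and 3 cytochromes lower. At an unadjusted p under 0.05 in edgeR the lists held 3 bile duct, 1 neutrophil, 0 red cell, 4 chemokine, 3 coagulation, 3 Notch, 4 YAP and 7 cytochrome genes. Of 14 T, B and NK cell genes 1 rose, Il7r, the interleukin 7 receptor (1.29 ± 0.31, adjusted p = 0.0451), while the 4 lymphocyte markers summed to 1.26 to 1.61 FPKM in Virus WT and 1.86 to 2.26 in Virus KO with 0 called. Leaving out 1 Virus library lost the call on Il7r in 5 of 6 cases (adjusted p up to 0.190).

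The same gene was also deleted in the Bred mice, whose libraries are separate from the Virus ones, and the 2 deletions were compared gene by gene. Among the 197 genes higher in Virus KO, 115 had a positive change in Bred mice, 17 were called higher there and 7 lower, and the median Bred change was 0.08. Among the 174 lower genes 58 had a negative change in Bred mice, 11 were called lower and 21 higher, and the median Bred change was 0.26. Over all genes tested 3.17% were called higher and 3.08% lower in Bred mice, and 6850 of 13955 changes were positive. The genes that fell with the vector thus more often had a positive than a negative change with the bred deletion. With the replicate block, for which the Bred numbers correlate, 25 of the 197 were called higher and 12 lower in Bred mice, and of the 174 38 were called higher and 14 lower, against 6.28% higher and 6.16% lower of all genes. The difference between the 2 effects was called in 448 of the 13955 genes (3.21%), with the Virus effect above the Bred effect in 169 and below it in 279. It was called in 168 of the 371 genes above, a share that uses the same Virus libraries as the choice of those genes and so is a description only.

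Genes called in the same direction in both deletions included Smo (0.97 in Virus and 1.11 in Bred mice, both called), Mmp14 (0.49 and 0.75, both called), Nkd1 (1.20 and 0.85, both called) and Mmp11 (1.73 and 1.39, both called). Gsta2 (-0.94 and -0.75), Ephx1 (-0.63 and -0.61), Msmo1 (-0.87 and -0.59) and Cyp2d9 (-0.55 and -0.54), the last in a family of near-identical P450 genes, were called lower in both, although Cyp2d9 lost its Virus call whichever Virus library was left out (adjusted p up to 0.149). For none of these 8 did the difference between deletions pass its test (adjusted p 0.443 to 0.981). As with Cyp2d9, the Virus calls on Smo, Mmp14, Mmp11 and Ephx1 were lost whichever Virus library was left out. Those on Nkd1, Gsta2 and Msmo1 were lost in some of these fits. Ihh changed by 1.10 in Virus and 0.55 in Bred mice, with only the first called and no call on the difference (adjusted p = 0.439). Lhx2 (1.95 and 1.06, adjusted p of the difference 0.301) and Fzd7 (0.88 and 0.34, adjusted p 0.132) were likewise called in Virus mice only, although Lhx2 was called in Bred mice with the replicate block (adjusted p = 0.0306).

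Other genes moved against each other. Inhbb fell by 2.26 on the log2 scale in Virus mice and changed by 1.70 in Bred mice, where it stood at 1.64, 3.49 and 2.95 FPKM in WT and 12.7, 8.28 and 7.76 in KO livers (adjusted p of the difference 0.00173). Itpkc was at 3.29, 4.85 and 4.17 FPKM in Bred WT and 8.23, 9.22 and 8.76 in Bred KO, so that the high group was the control in Virus mice and the knockout in Bred mice (difference -2.79 ± 0.24, adjusted p = 0.000372, the smallest of all genes). Tagln was at 5.17, 3.86 and 4.38 FPKM in Bred WT and 11.4, 12.6 and 9.23 in Bred KO (difference -2.55 ± 0.33, adjusted p = 0.00308), and Itga3 at 4.09, 4.87 and 5.02 against 9.19, 13.1 and 12.5 (difference -2.02 ± 0.28, adjusted p = 0.00380). Shb, a Src-homology adaptor of tyrosine kinase receptors, was at 60.3, 58.7 and 61.1 FPKM in Virus WT, 42.3, 34.6 and 33.2 in Virus KO, 26.1, 26.8 and 25.1 in Bred WT and 62.7, 51.7 and 44.1 in Bred KO (adjusted p = 0.00173). In the other direction, Nr1h4 was at 45.6, 46.0 and 45.0 FPKM in Bred WT and 35.5, 29.0 and 33.7 in Bred KO (difference 1.77 ± 0.19, adjusted p = 0.00173) and B3galt1, a galactosyltransferase, at 4.73, 6.07 and 4.00 against 1.24, 1.45 and 1.52, while in Virus mice it was at 0.721, 0.983 and 0.888 in WT and 2.44, 1.81 and 1.59 in KO livers (difference 2.94 ± 0.31, adjusted p = 0.00173). Rnf152, a lysosomal ubiquitin ligase, followed the same course (1.37 in Virus and -1.24 in Bred mice, adjusted p = 0.00173). In Virus mice alone, B3galt1 lost its call whichever Virus library was left out (adjusted p up to 0.151) and Shb without Virus KO replicate 3 (0.0509).

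For some genes, chosen after their values had been seen, the Virus WT livers stood apart from the other 9 DDC-fed livers. Igfbp1 was at 6.66, 45.5 and 25.3 FPKM in Bred WT and 68.0, 186 and 26.8 in Bred KO, below each of the Virus WT values of 254 to 1060. Nr1h4 at 13.3 to 16.2 FPKM was lower in Virus WT than in the other 9 livers (29.0 to 46.0), and the same held for Cyp7a1 (2.54 to 5.93 against 12.3 to 65.3), Hlf (1.72 to 2.46 against 4.48 to 12.1), Nrep (0.712 to 0.954 against 2.80 to 8.18) and G0s2 (1.10 to 7.69 against 10.2 to 37.1). Smo was at 4.68 to 8.21 FPKM in the 6 WT livers of both kinds and at 10.4 to 18.3 in the 6 KO livers.

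**Figure D5:**
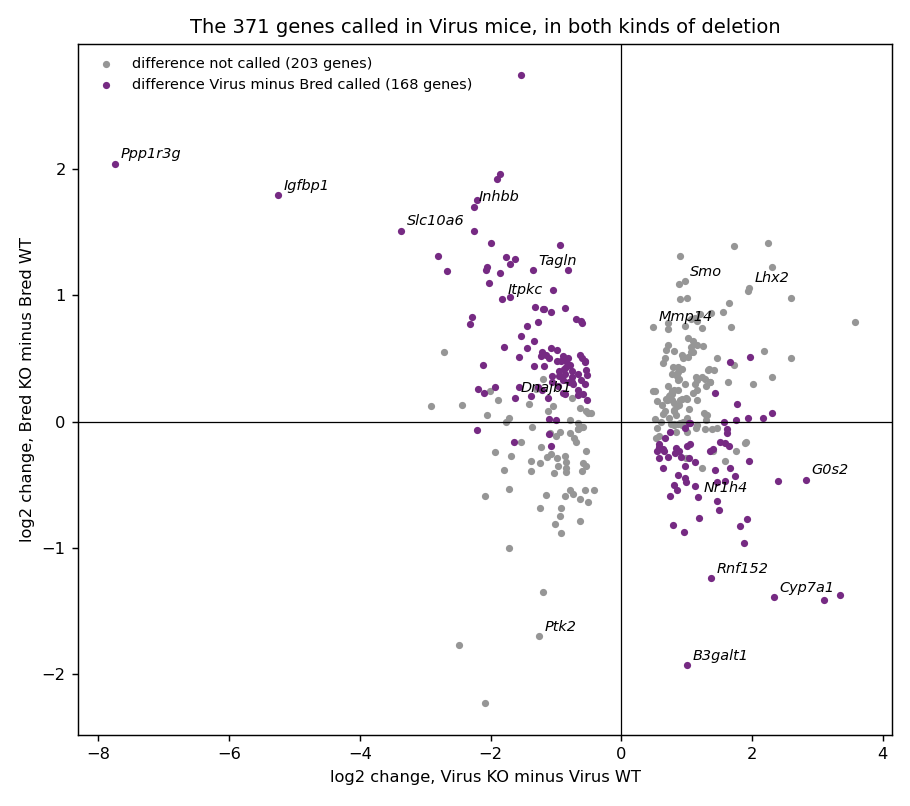
Log2 change in Virus mice (x axis) against that in Bred mice (y axis) for the 371 genes called in Virus mice. Purple points are the 168 genes whose difference between deletions was called and grey points the other 203. Points at the upper left, such as Igfbp1, Inhbb and Itpkc, fell in Virus KO and had a positive change in Bred KO, and Smo, Lhx2 and Mmp14 lie at the upper right.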

How the data were processed

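Whole-liver RNA-seq counts of the 12 DDC-fed livers were deposited as 1 table. Per the sources, the authors counted reads per gene with HTSeq 0.6.1 on mm10 after NEBNext Ultra directional library preparation. The aligner's settings and the strand setting of the counting are not given in the sources used here, so overlapping genes and near-identical copies can share counts. The authors also deposited FPKM, which scale the counts by gene length and total.

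Counts were tested with the edgeR 4.0.16 quasi-likelihood test (R 4.3.3) in 1 fit of the 4 DDC groups with TMM scaling, on 13955 genes that passed filterByExpr (minimum count 10, minimum total 15), with Benjamini-Hochberg adjustment and a threshold of 0.05. The biological coefficient of variation was 0.204. The Virus effect and its difference from the Bred effect were contrasts of that fit. Values after ± are standard errors, and each group had n = 3. DESeq2 1.42.0 and limma 3.58.1 (mean FPKM of at least 0.5) served as alternatives, beside other scalings, no count filter, a replicate block, removal of length and GC trends, the Virus libraries alone and each library left out. Totals of the 6 Virus libraries were 15795289 to 20067408 counts, those of the 6 Bred libraries 18116186 to 20428773, and no Virus replicates of one group agreed within sampling noise. Deviations of same-numbered samples correlated in Bred mice (r 0.348 to 0.386) and not in Virus mice. Precision is limited by 3 mice a group.

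Named genes were Ptk2, the 10 largest changes each way among called protein-coding genes without overlap (mean of at least 1 FPKM in the higher group), up to 6 called members of each list, up to 4 genes each way with the smallest p of the difference between deletions, and genes the study plotted, 96 in all. A further 18, Trp53inp1, Bach1 and the list of glucose and fasting genes were chosen after their values were seen. The groups and gene lists were chosen with earlier results of these data known. Other uncalled list members are named only to complete a pathway. A few genes that the rule names are not reported here.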

Additional observations from a re-analysis of the deposited data

Results flagged for a closer look

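The effect of FAK deletion differed between Virus and Bred mice, by a test of the difference itself, in 448 of 13955 genes. For the named genes among them the value in parentheses is the log2 change in Virus mice minus that in Bred mice. It was positive for Dclk3 (4.50), Cyp7a1 (3.73), G0s2 (3.29), B3galt1 (2.94), Nrep (2.88), Rnf152 (2.61), Mkx (2.26), 1700003E16Rik (2.23), Adra2b (2.14), Dixdc1 (2.03), Hlf (1.94), S1pr5 (1.91), Nr1h4 (1.77), Hunk (1.73), Ppp1r3b (1.68), Pth1r (1.63), Spsb4 (1.45), Sstr2 (1.19), Zeb2 (1.05) and S1pr1 (1.03). It was below 0 by more than 3 for Ppp1r3g (-9.78), Igfbp1 (-7.04), Slc10a6 (-4.89), Mt2 (-4.11), Inhbb (-3.96), Ddit4 (-3.96), Thbs1 (-3.86), Rasd1 (-3.76), Fosl1 (-3.27), Socs3 (-3.13), Akap12 (-3.11) and Maff (-3.09). Differences between -3 and -2 were found for Cdkn1a (-2.97), Btg2 (-2.91), Itpkc (-2.79), Cd163 (-2.56), Tagln (-2.55), Lpin1 (-2.46), Pck1 (-2.37), Klf4 (-2.33), Nipal1 (-2.14), Per1 (-2.06) and Itga3 (-2.02), and smaller ones for Dnajb1 (-1.81), Shb (-1.78), Junb (-1.76), Cd14 (-1.54), Cyp1a2 (-1.32), Esam (-1.16), Lpin2 (-0.88) and Smad3 (-0.70), the last not called with the replicate block (adjusted p = 0.0668). Vector injection, the age at deletion and the cells reached differed between the 2 kinds of mice, and they cannot be told apart. Feeding state, hour of collection and weeks on DDC of each mouse are not given, and their part in these differences was not tested.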

How the results depend on the processing

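All 371 genes called in Virus mice kept their direction in each of the alternatives that tested them, and the fall of Ptk2 stayed past the threshold in each fit across genes, but the number of calls moved. Against 371 there were 927 with DESeq2, 656 with length and GC trends removed, 1306 with the 6 Virus libraries fitted alone, and 203 when a change of at least 2-fold was also required. Leaving out 1 library gave 64 to 688 calls. The 448 differences between deletions became 881 with DESeq2 and 118 to 505 with 1 library left out. The cause of these shifts was not tested. Virus samples of the same number did not deviate together (r -0.105, -0.0943 and -0.0873), so the numbers do not pair them, whereas the Bred pairs did (0.362, 0.348 and 0.386). With the replicate block there were 677 calls, and 890 with the block and the trends removed. The differences numbered 670 with the block, 403 of them among the 448, and 684 with both, and the 872 calls in Bred mice became 1735. Of the 114 named genes 1, Smad3, lost and 10 gained a called difference with the block, and 13 gained a Bred call. With 3 livers a group, 2612 genes had an unadjusted p under 0.05 and most named calls lie near the threshold. The median change was 0.007 in the edgeR fit and 0.126 in limma on log2(FPKM + 1).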
